A study of Homo sapiens with 6 samples.

Results

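The cytosolic ribosome is built from a large and a small subunit, and this account describes the mRNAs of its proteins in A549 cells, an established human lung adenocarcinoma line. Members were the rows of the deposited gene table whose symbol is RPL or RPS followed by digits and an optional A or X, together with RPLP0, RPLP1, RPLP2 and RPSA. The rule found 77 of 61806 rows, 46 for the large subunit and 31 for the small one, and used no measured value. Cells labelled as wild-type A549 were seeded for 24 h and then exposed for 24 h to the solvent DMSO (3 libraries) or to Japoflavone B (3 libraries, whose titles carry the unexplained code LE-532). The dose is given as 40 without a unit. Whether the 3 libraries of a group came from separate cultures is not stated, so the p-values below measure the spread between these libraries, which may be technical. Japoflavone B is named a PARP1 inhibitor in the series title, and the question here was whether ribosomal protein mRNAs differed between the treatments, and whether the subunits differed from each other.

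Each ribosome carries a single copy of most of its proteins, which are made in the cytoplasm, imported into the nucleolus and assembled there on ribosomal RNA. The large subunit holds the peptidyl transferase centre, the exit tunnel for the new chain and the stalk that recruits elongation factors, while the small subunit holds the decoding centre and the mRNA channel. Most ribosomal protein mRNAs begin with a cytosine followed by a run of pyrimidines, the terminal oligopyrimidine or TOP motif, through which LARP1 and mTOR signalling adjust their translation and stability. Proteins that are not built into ribosomes can bind MDM2, the ubiquitin ligase that acts on p53, and RPL5 and RPL11 are the best known of these.

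The promoters below belong to the members with the highest and the lowest fold changes of each subunit, in falling order, and show how far they share this start. Each line gives the 45 bases before and the first 15 bases from the start site annotated by RefSeq on GRCh38.p14, 5′ to 3′ on the strand of the gene, with the run of pyrimidines that covers the start in capitals.
RPL21, chr13:27251513-27251572, plus strand: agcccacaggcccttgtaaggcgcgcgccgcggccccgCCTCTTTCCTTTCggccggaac
RPL9, chr4:39458908-39458967, minus strand: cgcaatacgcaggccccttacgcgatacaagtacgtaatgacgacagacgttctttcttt
RPL36, chr19:5690250-5690309, plus strand: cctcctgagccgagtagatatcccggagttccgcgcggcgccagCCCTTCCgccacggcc
RPL12, chr9:127451392-127451451, minus strand: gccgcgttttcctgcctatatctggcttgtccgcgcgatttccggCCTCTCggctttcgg
RPL3, chr22:39319609-39319668, minus strand: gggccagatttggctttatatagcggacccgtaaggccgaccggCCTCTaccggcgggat
RPL22, chr1:6199581-6199640, minus strand: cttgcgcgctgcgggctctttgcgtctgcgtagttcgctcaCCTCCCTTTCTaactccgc
RPL6, chr12:112411428-112411487, minus strand: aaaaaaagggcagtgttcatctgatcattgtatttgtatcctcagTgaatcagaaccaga
RPL36A, chrX:101390966-101391025, plus strand: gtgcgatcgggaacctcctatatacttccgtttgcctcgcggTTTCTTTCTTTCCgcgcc
RPS27, chr1:153990717-153990776, plus strand: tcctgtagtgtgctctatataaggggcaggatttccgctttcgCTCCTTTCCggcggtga
RPS19, chr19:41860210-41860269, plus strand: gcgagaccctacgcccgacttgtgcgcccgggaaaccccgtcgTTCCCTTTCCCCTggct
RPS12, chr6:132814524-132814583, plus strand: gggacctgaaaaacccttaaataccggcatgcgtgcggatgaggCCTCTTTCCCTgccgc
RPS7, chr2:3575215-3575274, plus strand: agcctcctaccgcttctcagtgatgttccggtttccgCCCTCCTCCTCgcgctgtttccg
RPS10, chr6:34426055-34426114, minus strand: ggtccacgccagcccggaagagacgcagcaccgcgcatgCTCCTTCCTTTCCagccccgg
RPS28, chr19:8321451-8321510, plus strand: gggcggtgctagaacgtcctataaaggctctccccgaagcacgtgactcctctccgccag
RPS26, chr12:56041873-56041932, plus strand: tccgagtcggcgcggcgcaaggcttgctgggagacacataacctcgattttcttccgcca
RPL9, RPS26 and RPS28 have a purine at the annotated start and so no run over it, and RPL6 has a single T there. In RPS28 pyrimidines follow directly after the purine, so this measure depends on the exact base annotated. The other sequences start on a cytosine within a run, among them both the most changed member, RPL21, and one that did not pass, RPL36A. RefSeq gave a promoter of 250 bases before to 50 after the start for 62 of the 77 members, 38 of the large and 24 of the small subunit. A cytosine stood at the start in 74.2% of these, against 12.3% of the 11321 matched promoters of genes tested here. A pyrimidine run of 5 or more bases covered the start in 71.0% of the members and in 8.99% of those promoters. The share was 68.4% in the large and 75.0% in the small subunit, and the median run was 10.5 bases in both. CCGGAAG, the core that ETS factors such as GABPA bind, was found on either strand in 33.9% of the members and 18.6% of the promoters of genes tested. TATAAA on either strand between 40 and 15 bases before the start stood in 6.45% and 2.0%. The YY1 core AAGATGGC was found on either strand in 9.68% and 5.25%, and the E-box CACGTG, also a palindrome, in 4.84% and 9.91%. These are matches of letters only.

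The libraries held 15298531 to 21744407 gene counts. Pearson correlations of log2 CPM (counts scaled to the library size) over all genes ran from 0.990 to 0.992 within a group and from 0.926 to 0.931 across groups. Transcripts of the mitochondrial genome rose in share from 4.361% ± 0.371 to 8.434% ± 0.127 of counts (SD, n = 3), and their part in the results below was not tested. The epithelial keratin genes KRT8 and KRT18 were measured at 257 ± 19.8 and 464 ± 24.4 FPKM after DMSO and at 83.9 ± 3.23 and 130 ± 4.47 FPKM after Japoflavone B (SD, n = 3). EPCAM, another epithelial gene, had only 125 and 89 counts over the 3 libraries of each group. The 7 leukocyte and endothelial marker genes had 0 to 14 counts in a group, and CD3E and VWF had 0 in every library. Of 4 fibroblast marker genes 3 were tested, of which COL1A1 fell from 2402 to 232 counts summed over a group, while COL1A2 with 108 and 81 counts and PDGFRB with 24 and 28 did not pass. These are bulk samples of a single cell line, in which fewer cells with a transcript and less of it per cell cannot be told apart.

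After Japoflavone B nearly all ribosomal protein mRNAs were more abundant, in both subunits and by a similar factor. All 77 members passed the filter on low counts and were tested. In the large subunit 45 of 46 rose and RPL36A did not pass; none fell in edgeR, also at an unadjusted p under 0.05, nor with DESeq2 or limma. In the small subunit 29 of 31 rose, RPS26 fell, and RPS28 did not pass. Over all 16082 genes tested, the test called 34.7% higher and 35.4% lower (quasi-likelihood test of edgeR, with a Benjamini-Hochberg adjusted p under 0.05). The median log2 fold change was 0.6358 for the large and 0.6353 for the small subunit, both 1.55-fold, against -0.0038 for all genes tested. The middle 50% of the large subunit genes lay between 0.53 and 0.73 and of the small subunit genes between 0.53 and 0.73, while those of all genes lay between -0.59 and 0.49. A rise of at least 1.5-fold was called for 30 large and 18 small subunit genes, 48 of 77, and for 19.8% of all genes. Leaving the members out of the scaling of libraries gave medians of 0.6449 and 0.6445.

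**Figure D1:**
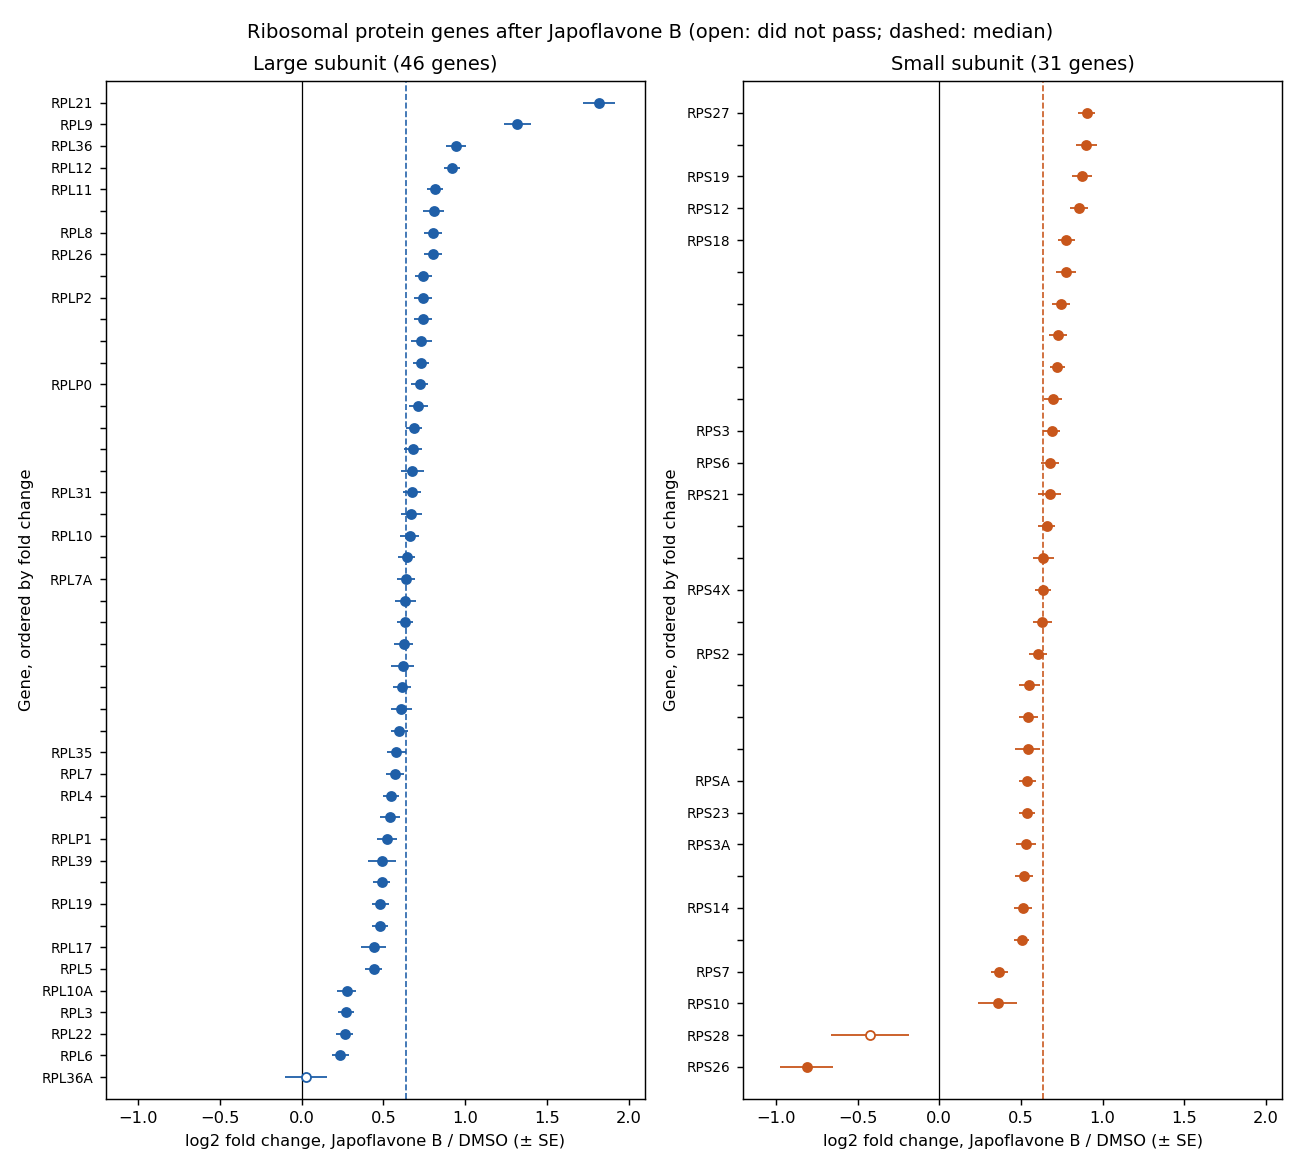
Log2 fold change of each ribosomal protein gene, Japoflavone B over DMSO (x axis, ± SE), in the 46 large and 31 small subunit genes, ordered by fold change (y axis, with the genes described in the text named). Open symbols did not pass the test and the dashed line is the subunit's median, 0.64 in both; most members lie close to it, and RPS26, RPL21 and RPS28 lie farthest away.

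Single libraries show the same separation. FPKM, the authors' level scaled by exonic size and library total, did not overlap between the groups and were higher after Japoflavone B for 44 of 46 large and 29 of 31 small subunit genes. Over all genes tested this held for 30.9%, and the reverse for 40.7%. RPS26 was the only member whose FPKM were lower in every treated library, and RPL36A, RPL10A and RPS28 overlapped. Large subunit genes took 2.346%, 2.586% and 2.706% of all counts in the DMSO libraries and 3.631%, 3.77% and 3.541% in the Japoflavone B libraries. Small subunit genes took 1.635%, 1.801% and 1.896%, then 2.575%, 2.681% and 2.527%. Each treated library thus lay above each DMSO library for both subunits. The ratio of the group means was 1.432 for the large and 1.46 for the small subunit. Shares of counts carry no correction by the scaling factors that the fold changes use.

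Large and small subunit mRNAs moved together, and the difference between them was far smaller than the change itself. The medians differed by 0.0004 log2. Within each library, the median deviation of large subunit genes from their DMSO mean, on the log2 CPM scale, was -0.1139, 0.0125 and 0.1044 after DMSO and 0.6266, 0.7025 and 0.6078 after Japoflavone B. For small subunit genes the deviations were -0.114, 0.009 and 0.1089, then 0.6056, 0.7001 and 0.5824. The subunits therefore followed each other from library to library, including the lower first DMSO library. Their difference in a library ran from -0.0045 to 0.0035 after DMSO and from 0.0024 to 0.0255 after Japoflavone B.

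In summed counts the large to small ratio was 1.435, 1.436 and 1.427 after DMSO and 1.41, 1.406 and 1.401 after Japoflavone B. The groups did not overlap in this ratio, which averaged 1.433 ± 0.00483 and 1.406 ± 0.0046 (SD, n = 3), a factor of 0.9811; as a score over the members it was given no test. Adding the counts of pseudogene rows named after members gave a factor of 0.9823. A sum is led by its most abundant genes. RPL4, which lines the exit tunnel, held 9.25% of large subunit counts after DMSO and 8.78% after Japoflavone B, RPL3 4.55% and 3.58%, RPL19 4.43% and 4.02%, while RPLP0 held 6.38% and 6.81% and RPL8 4.94% and 5.59%. In the small subunit RPS2 held 9.73% and 9.4%, RPS6 7.27% and 7.45%, and RPS19 5.7% and 6.68%.

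**Figure D2:**
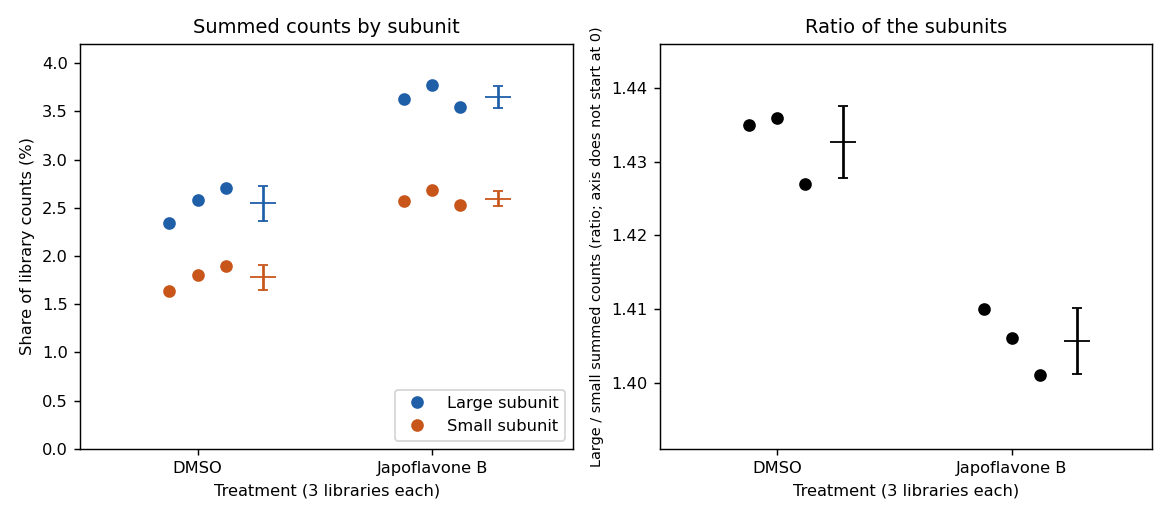
Left, share of library counts (y axis, %) on large and small subunit genes in each of the 3 DMSO and 3 Japoflavone B libraries; right, the ratio of summed large to small subunit counts in the same libraries (y axis, which does not start at 0). Points are libraries and bars are group means ± SD; both shares are higher and the ratio slightly lower, 1.406 against 1.433, after Japoflavone B.

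The order of the members by level was nearly kept. Highest in the large subunit were RPL8 and RPLP0, described below, and RPL7A, an RNA-binding protein of the large subunit, with 378.79, 420.35 and 440.27 FPKM after DMSO and 590.12, 621.66 and 583.48 FPKM after Japoflavone B. RPL7A was 1.55-fold higher, with all treated above all DMSO libraries (edgeR adjusted p = 2.91e-11). The Spearman correlation between DMSO and Japoflavone B means of FPKM was 0.9897 over the 77 members, a description over genes that share libraries. The median FPKM of large subunit genes was 132 after DMSO and 181 after Japoflavone B, and of small subunit genes 150 and 244. The gene at the median can differ between the groups, so these values do not give the median fold change. That was 1.55 in both subunits. Levels above 100 FPKM were found for 28 large subunit genes after DMSO and 36 after Japoflavone B, and for 25 small subunit genes in both groups. The exonic sizes behind these FPKM join all annotated exons of a gene and exceed the length of most of these mRNAs, so levels compare poorly between members, while the comparison of treatments within a gene is not touched by it.

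**Figure D3:**
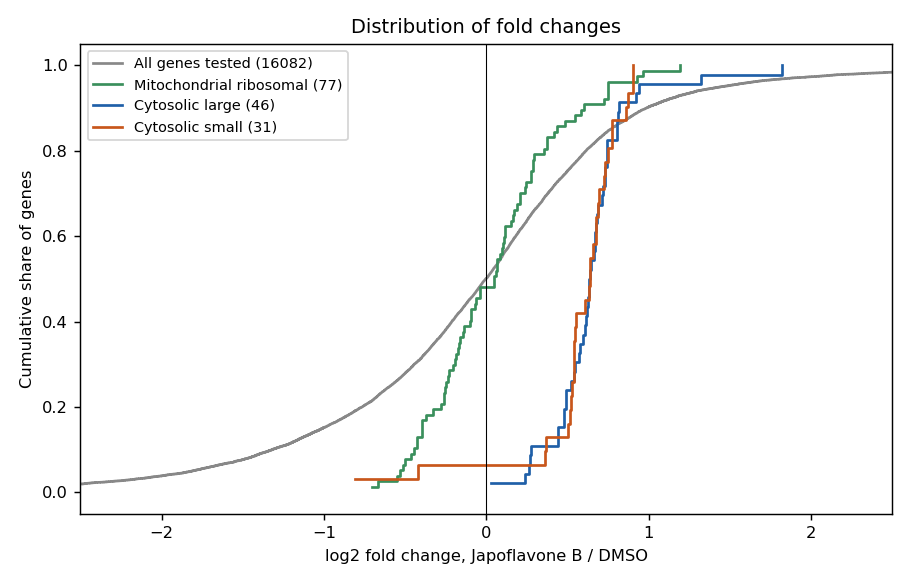
Cumulative share of genes (y axis) against log2 fold change, Japoflavone B over DMSO (x axis), for the gene groups named in the legend. The large and small subunit lines run close together with medians of 0.64 each, to the right of the line of all genes, whose median is -0.0038.

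Among large subunit genes, the acidic stalk rose in full. RPLP0, RPLP1 and RPLP2 form the stalk that binds elongation factors, and RPL12 anchors it to the ribosome. RPL12 (chr9:127447674-127451406, GRCh38) was measured at 255.11, 274.77 and 268.55 FPKM after DMSO and at 466.56, 494.34 and 446.11 FPKM after Japoflavone B. Its lowest treated library was well above its highest DMSO library, a 1.89-fold rise (log2 0.92 ± 0.05 SE; edgeR adjusted p = 3.19e-15). RPLP0 had 374.26, 422.34 and 422.98 FPKM, then 608.51, 658.05 and 605.93 FPKM, 1.65-fold higher (adjusted p = 1.79e-12). RPLP2 had 201.6, 224.97 and 235.99 FPKM, then 353.44, 348.42 and 330.17 FPKM, 1.67-fold higher. RPLP1, which pairs with RPLP2 in the stalk, rose less, from 235.47, 276.44 and 291.11 FPKM to 360.88, 373.86 and 339.5 FPKM, 1.44-fold (log2 0.52 ± 0.06 SE, adjusted p = 1.46e-08). The 4 genes had a median log2 fold change of 0.73.

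RPL5 and RPL11 join 5S ribosomal RNA in the particle that can bind MDM2, and both rose by different factors. RPL11 (chr1:23691742-23696835) had 128.1, 131.08 and 132.62 FPKM after DMSO and 214.64, 221.01 and 206.85 FPKM after Japoflavone B. That was 1.76-fold higher (log2 0.82 ± 0.05 SE; edgeR adjusted p = 1.94e-14). RPL5 (chr1:92832013-92841924) had 149.09, 151.96 and 165.75 FPKM, then 200, 196.45 and 193.62 FPKM, 1.36-fold higher (log2 0.44 ± 0.05 SE, adjusted p = 1.21e-08). The ratio of RPL11 to RPL5 FPKM was 0.859, 0.863 and 0.8 after DMSO and 1.07, 1.13 and 1.07 after Japoflavone B, without overlap. An exact two-sided permutation test of that ratio gave p = 0.1 (n = 3 per group), the smallest value that 3 against 3 allows, so this design cannot reach 0.05 for a single ratio.

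Of the 3 proteins that reach toward the peptidyl transferase centre, RPL3 changed least. RPL8 had 530.65, 603.8 and 610.64 FPKM after DMSO and 926.2, 985.07 and 923.08 FPKM after Japoflavone B, 1.74-fold higher (edgeR adjusted p = 2.12e-13). RPL10, which is added late in assembly, had 183.31, 207.25 and 220.02 FPKM, then 299.63, 310.04 and 289.42 FPKM, 1.58-fold higher (adjusted p = 3.6e-11). RPL3 (chr22:39312882-39320389) had 232.85, 244.78 and 260.91 FPKM, then 276.58, 282.95 and 270.88 FPKM, a 1.21-fold rise (log2 0.27 ± 0.05 SE, adjusted p = 2.74e-05). The groups do not overlap for any of the 3, but the highest RPL3 value after DMSO lies close to the lowest one after treatment.

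All 9 listed genes of the exit tunnel and exit port rose, with a median log2 fold change of 0.55 and a range from 0.26 to 0.80. RPL4, one of the proteins that narrow the tunnel, had 393.95, 423.1 and 441.29 FPKM after DMSO and 564.82, 592.43 and 555.76 FPKM after Japoflavone B, 1.46-fold higher (edgeR adjusted p = 1.76e-10). RPL26, a protein at the exit port, rose from 148 ± 10.9 to 240.2 ± 6.14 FPKM, 1.74-fold. RPL31 rose from 77.93 ± 6.56 to 115.6 ± 1.5 FPKM, 1.59-fold, and RPL35 from 256.7 ± 24.4 to 356.7 ± 10.1 FPKM, 1.49-fold. RPL22, whose paralogue RPL22L1 is described below, was the least changed of the 9, with 36.43, 36.63 and 39.54 FPKM, then 41.63, 42.04 and 42.13 FPKM, 1.2-fold higher (adjusted p = 7.16e-05).

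The largest fold changes of the large subunit belonged to genes with few counts on their own rows. RPL21 (chr13:27251362-27256691) had 230, 270 and 162 counts after DMSO and 757, 634 and 626 counts after Japoflavone B, which is 5.03, 5.65 and 4.82 FPKM against 17.39, 18.35 and 15.46 FPKM. That was a 3.53-fold rise (log2 1.82 ± 0.10 SE; edgeR adjusted p = 1.14e-15). RPL9 (chr4:39452587-39458931), which lies near the site where elongation factors act, had 3.73, 3.82 and 4.12 FPKM, then 9.59, 9.05 and 8.41 FPKM, 2.5-fold higher (adjusted p = 3.89e-14). Next came RPL36 (chr19:5674947-5691875), a small protein of the large subunit, with 64.49, 70.78 and 79.7 FPKM, then 131.22, 128.4 and 124.64 FPKM, 1.92-fold higher (adjusted p = 9.89e-14). None of these genes has overlapping groups. The annotated span of RPL36 overlaps the same-strand gene HSD11B1L and the opposite-strand genes MICOS13 and LONP1, and the strand setting of the counting is not given in the sources used here.

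At the other end were RPL36A, RPL6, RPL22 and RPL3. RPL36A (chrX:101390824-101396155) had 2.36, 2.44 and 2.23 FPKM after DMSO and 2.33, 2.23 and 2.12 FPKM after Japoflavone B. The groups overlap, and the log2 difference of 0.03 ± 0.13 (SE) did not pass (edgeR adjusted p = 0.859). RPL6 (chr12:112405189-112418838) had 133.71, 142.62 and 152.05 FPKM, then 154.68, 161.71 and 153.54 FPKM, a 1.18-fold rise (log2 0.24 ± 0.05 SE, adjusted p = 0.000248). RPL10A was close to it with 260.87, 282.22 and 306.76 FPKM, then 325.64, 331.7 and 299.57 FPKM, 1.21-fold higher by the test (adjusted p = 0.000128). The treated library with the lowest RPL10A value lay below the highest DMSO library. With limma on log2(FPKM + 1), RPL6 and RPL10A no longer passed (adjusted p = 0.0501 and 0.0529).

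In the small subunit 13 of 14 head and beak genes rose, with a median log2 fold change of 0.71 over the 14, and RPS28 did not pass. RPS19, the gene most often mutated in Diamond-Blackfan anaemia, had 258.91, 300.16 and 321.39 FPKM after DMSO and 507.89, 517.13 and 476.78 FPKM after Japoflavone B, 1.83-fold higher (edgeR adjusted p = 3.85e-13). RPS12, a beak protein, had 450.71, 509.62 and 530.09 FPKM, then 844.43, 855.69 and 813.48 FPKM, 1.81-fold higher (adjusted p = 1.01e-13). For RPS19 and RPS12 the first DMSO library was the lowest of its group, and all treated libraries lay above all DMSO libraries. RPS18 rose from 271 ± 16.1 to 432.3 ± 12.5 FPKM, 1.71-fold (SD, n = 3).

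The 3 genes listed for the decoding centre and mRNA entry all rose, by a narrow range of factors. RPS2, with RPS3 part of the entry to the mRNA channel, was the member with the highest FPKM, at 654.59, 757.26 and 753.68 after DMSO and 993.35, 1081.12 and 995.11 after Japoflavone B. It was 1.52-fold higher (log2 0.61 ± 0.06 SE; edgeR adjusted p = 1.37e-10). RPS3 had 162.88, 177.66 and 188.14 FPKM, then 262.89, 273.43 and 257.59 FPKM, 1.61-fold higher. RPS23, which reaches into the decoding centre, had 135.45, 146.36 and 146.76 FPKM, then 189.52, 199.56 and 190.28 FPKM, 1.45-fold higher (adjusted p = 1.92e-10).

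The platform and mRNA exit held both ends of the small subunit, with 5 of 6 genes higher, 1 lower and a median log2 fold change of 0.53. RPS27 (chr1:153990762-153992155) had the highest fold change of the small subunit, rising from 142.41, 158.28 and 148.54 FPKM to 248.9, 269.25 and 263.7 FPKM, 1.87-fold (log2 0.90 ± 0.05 SE; edgeR adjusted p = 1.78e-14). RPS26 (chr12:56041351-56044697), which contacts mRNA as it leaves the small subunit, had 3.77, 3.94 and 3.92 FPKM after DMSO and 2.29, 2.07 and 1.8 FPKM after Japoflavone B. All treated libraries lay below all DMSO libraries, and RPS26 fell by 0.81 ± 0.16 on the log2 scale, 1.76-fold (adjusted p = 6.15e-05). Its row holds few reads, 161, 176 and 123 counts after DMSO and 93, 67 and 68 after Japoflavone B. RPSA, which doubles as a laminin-binding protein, had 108.82, 121.27 and 123.7 FPKM, then 153.13, 167.51 and 158.5 FPKM, 1.45-fold higher. RPS14 had 123.15, 136.72 and 145.92 FPKM, then 177.31, 188.91 and 173.12 FPKM, 1.43-fold higher. RPS3A and RPS21 were 1.44-fold and 1.6-fold higher. These 4 genes lay in the range of most other members, apart from RPS26.

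RPS6, the small subunit protein that S6 kinases phosphorylate, had 443.06, 476.09 and 520.7 FPKM after DMSO and 728.71, 722.19 and 694.85 FPKM after Japoflavone B. It rose 1.6-fold (log2 0.68 ± 0.05 SE; edgeR adjusted p = 7.45e-12). RPS4X, encoded on the X chromosome, had 367.89, 387.39 and 405.33 FPKM, then 569.25, 574.86 and 535.4 FPKM, 1.55-fold higher. The least changed abundant small subunit gene was RPS7 (chr2:3575260-3580920), another protein that can bind MDM2, with 107.41, 114.09 and 118.65 FPKM, then 131.61, 143.45 and 133.4 FPKM. It rose 1.29-fold (log2 0.37 ± 0.05 SE, adjusted p = 5.12e-07).

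The members that stood apart were mostly those with few counts. Above a mean of 20 FPKM over all libraries, a limit chosen after the values were seen, all 41 large and all 28 small subunit genes rose, within 0.24 to 0.94 and 0.37 to 0.90 log2. The SD of log2 fold changes over these genes was 0.16 for the large and 0.13 for the small subunit, against 0.27 and 0.35 over all members. The other 8 members were RPL9, RPL17, RPL21, RPL36A, RPL39, RPS10, RPS26 and RPS28. Of these 5 rose, RPS26 fell, and RPL36A and RPS28 did not pass. RPS10 (chr6:34417454-34426069), a head protein, had 4.32, 4.34 and 5.14 FPKM after DMSO and 5.68, 5.55 and 5.16 FPKM after Japoflavone B, 1.28-fold higher (edgeR adjusted p = 0.00964). Its groups come within 0.02 FPKM of touching, and with library totals as the scaling it no longer passed (adjusted p = 0.0585).

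Low counts on a member's row went with many counts on pseudogene rows named after it for some members but not for others. These rows were matched by name, and their sequences were not compared. The human genome carries many processed pseudogenes of ribosomal protein genes, and the table holds 1350 rows named after a member with a P and a number, of which 492 had at least 1 count and 111 were tested. Of these 69 were called higher, 2 lower and 40 did not pass, beside 34.7% higher and 35.4% lower over all genes, and the median log2 fold change was 0.59. Among the 46 tested pseudogene rows with at least 1000 counts over all libraries, 44 were called higher and the other 2 did not pass. Pseudogene rows held more than 50% of the combined counts of member and pseudogenes after DMSO for 3 members, RPS28, RPL39 and RPL21, more than 20% for 9 members and under 5% for 50. For RPS26, RPL36A and RPL9, which are also low, they held 5.93%, 4.09% and 12.3%. Reads counted on neither a member nor its pseudogene rows would not show in these shares, so a small share does not settle the part of copies.

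RPS28 shows how far such rows matter. Its own row (chr19:8321158-8323340) had 78, 99 and 42 counts after DMSO and 62, 41 and 37 counts after Japoflavone B, with overlapping groups and a log2 difference of -0.42 ± 0.24 (SE) that did not pass (edgeR adjusted p = 0.114). Without the third DMSO library the difference was -0.57 and passed (adjusted p = 0.0332). RPS28P7 had 1527, 1880 and 1370 counts, then 2519, 2003 and 2185 counts, a log2 fold change of 0.69 (adjusted p = 3.56e-10). Rows of RPS28 copies, nearly all of it RPS28P7, held 95.6% of the combined counts after DMSO and 98.0% after Japoflavone B. With these counts added, RPS28 was called higher by 0.66 log2 (adjusted p = 2.92e-10), so its direction on the deposited row alone is uncertain. RPS28 also overlaps the opposite-strand genes NDUFA7 and KANK3.

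RPL39 and RPL21 shifted as well. RPL39, the smallest protein of the exit tunnel, had 15.3, 15.28 and 20.09 FPKM after DMSO and 21.79, 22.85 and 21.36 FPKM after Japoflavone B, a log2 fold change of 0.49 ± 0.09 (SE; edgeR adjusted p = 1.52e-05). With RPL39P3, which went from 7385 to 10361 summed counts, and the other copies added it was 0.65. RPL21 fell from a log2 fold change of 1.82 to 0.96 when its copies were added. The copy with most reads, RPL21P16, had 339, 462 and 362 counts and then 381, 396 and 439. The changes of RPL9 (1.28), RPS26 (-0.70) and RPL36A (0.02) moved little, but added counts cannot cover reads counted on neither row. How reads that fit both a gene and its copies were assigned was not resolved in these counts, and members with many copies are uncertain to that extent.

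**Figure D4:**
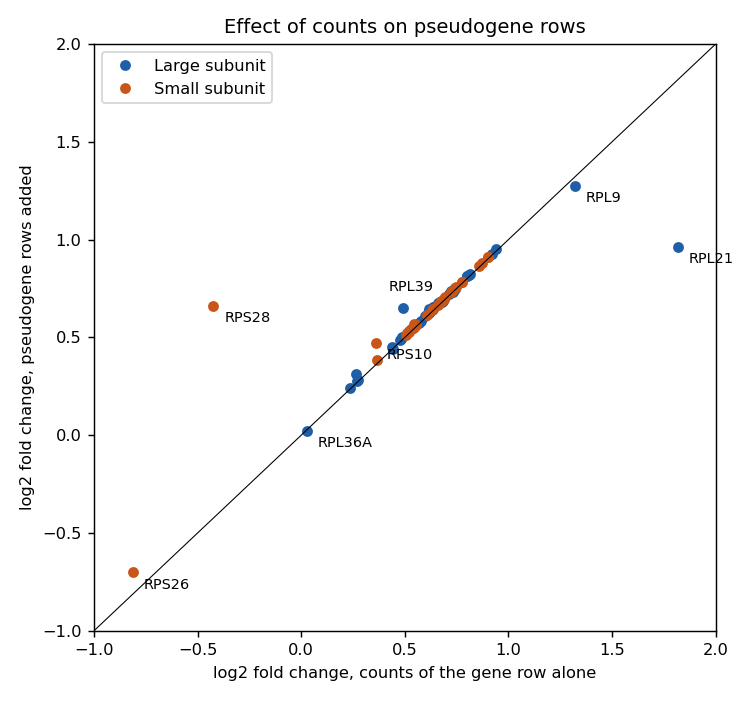
Log2 fold change of each member, Japoflavone B over DMSO, from its own row (x axis) and after adding the counts of pseudogene rows named after it (y axis), with the line of equality. Most members lie on the line; RPS28 moves from -0.42 to 0.66 and RPL21 from 1.82 to 0.96.

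Several ribosomal proteins have a paralogue that can take their place in some ribosomes or tissues. The 10 listed paralogues and fusion genes fall outside the rule. RPL10L had 0 counts in all 6 libraries, where 0 counts allow up to 3 per library. Of the 9 tested, 5 rose, 1 fell and 3 did not pass (34.7% of all genes called higher, as above). FAU encodes RPS30 fused to a ubiquitin-like protein and rose 1.53-fold (edgeR adjusted p = 3.22e-09), close to the members. RPL22L1 had 29.92, 29.42 and 31.77 FPKM after DMSO and 21.01, 21.66 and 21.16 FPKM after Japoflavone B, a 1.33-fold fall (adjusted p = 3.65e-06). RPS27L, a p53 target gene, had 15.7, 15.24 and 15.92 FPKM, then 16.29, 15.94 and 16.56 FPKM, 1.12-fold higher (adjusted p = 0.00819), a call that was lost with library totals as the scaling (0.06 log2, adjusted p = 0.309) and without the second DMSO library (adjusted p = 0.0535).

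RPL7L1 rose 1.34-fold (edgeR adjusted p = 4.52e-08) and RPL36AL 1.16-fold (adjusted p = 0.000753), the latter not passing with library totals (adjusted p = 0.052). RPL26L1 (-0.10 log2, adjusted p = 0.255), RPL39L (-0.23 log2, adjusted p = 0.0775) and RPL3L (-0.78 log2, adjusted p = 0.13, with 51 and 26 counts) did not pass. With library totals, RPL26L1 and RPL39L were called lower (-0.20 and -0.33 log2, adjusted p = 0.0207 and 0.0153). RPL39L was also called lower without the first DMSO library (adjusted p = 0.0055) and without the first Japoflavone B library (adjusted p = 0.044).

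In 4 of 6 pairs of a member and its paralogue the FPKM ratio was higher in every treated library than in every DMSO library. RPL22 to RPL22L1 in FPKM was 1.22, 1.25 and 1.24 after DMSO and 1.98, 1.94 and 1.99 after Japoflavone B. RPS27 to RPS27L was 9.07, 10.4 and 9.33, then 15.3, 16.9 and 15.9. RPL26 to RPL26L1 rose from 4.64 ± 0.23 to 8.68 ± 0.339 and RPL39 to RPL39L from 0.82 ± 0.0632 to 1.37 ± 0.235 (SD, n = 3), while RPL36A to RPL36AL was 0.012 ± 0.000425 and 0.0105 ± 4.2e-05. The groups did not overlap for these 5 pairs, each with an exact two-sided permutation p = 0.1, the smallest possible. For single genes, FPKM of the groups did not overlap in 30.9% (higher after Japoflavone B) and 40.7% (lower) of all genes tested. No such share was computed for ratios. RPL7 to RPL7L1 overlapped, with 7.88 ± 0.647 and 8.74 ± 0.456 (exact permutation p = 0.2). Of the 7 ratios computed, counting RPL11 to RPL5, none could pass 0.05, before or after adjustment.

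**Figure D5:**
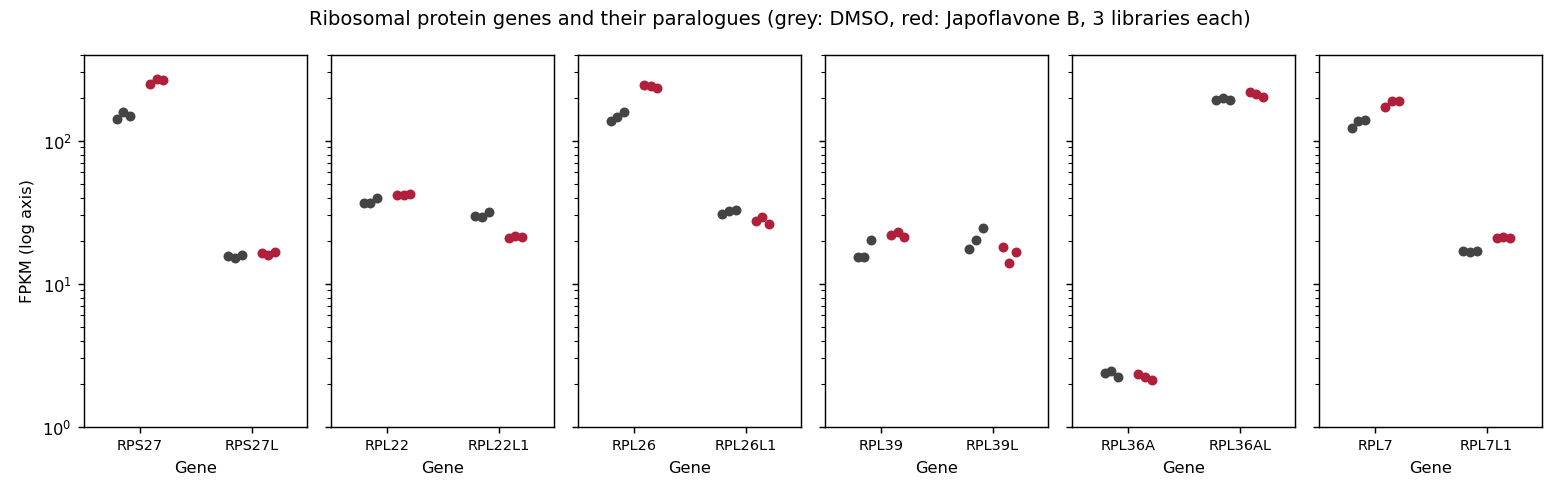
FPKM (log axis) of ribosomal protein genes and their paralogues in the 3 DMSO (grey) and 3 Japoflavone B (red) libraries, 1 panel for each pair. RPL22, RPL26, RPL39, RPL7 and RPS27 are higher after treatment and RPL36A overlaps, while RPL22L1 is lower, 21.3 against 30.4 FPKM on average, and RPS27L nearly level at 16.3 against 15.6 FPKM.

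Other mRNAs with a TOP motif also rose. Of 19 listed outside the ribosomal proteins, 17 rose, HNRNPA1 fell and EEF1G did not pass, with a median log2 fold change of 0.55, while 34.7% of all genes were called higher. EEF2, the translocation factor, rose from 543 ± 26.8 to 1220 ± 29.8 FPKM, 2.4-fold (edgeR adjusted p = 1.15e-18), and EEF1D, a subunit of the exchange factor for EEF1A, from 16.1 ± 1.5 to 34.8 ± 2.14 FPKM, 2.31-fold. NACA, which meets new chains at the exit port, rose 1.59-fold. HNRNPA1, a splicing regulator, fell from 66.4 ± 3.47 to 34.3 ± 1.51 FPKM, 1.8-fold (adjusted p = 5.46e-14). Beside the same 34.7%, all 11 listed long noncoding host genes of small nucleolar RNAs rose, with a median of 1.40 log2. SNHG16 was 3.2-fold, ZFAS1 2.92-fold, GAS5 2.64-fold and SNHG29 2.46-fold higher.

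Genes that escort or regulate ribosomal proteins moved less uniformly. Of 12 listed chaperones and assembly helpers, 7 rose, 2 fell and 3 did not pass, beside 34.7% and 35.4% over all genes, with a median of 0.18 log2, or 0.08 with library totals as the scaling. HEATR3, which helps RPL5 into the nucleus, fell from 3.73 ± 0.185 to 1.68 ± 0.0473 FPKM, 2.06-fold (edgeR adjusted p = 5.18e-11). GRWD1, a chaperone of RPL3, fell 1.16-fold and was named after its value was seen. TSR2, the chaperone of RPS26, rose 1.35-fold, PDCD2, the chaperone of RPS2, 1.34-fold and NOP53, a ribosome assembly factor, 1.41-fold. Of 11 listed regulators, 4 rose, 2 fell and 5 did not pass, with a median of 0.03 log2 that was -0.07 with library totals. The 4 of 11 called higher are near the 34.7% of all genes. EIF4EBP1, the mTOR-controlled translation repressor, rose 1.91-fold, MYC 1.76-fold and LARP1 1.18-fold, while RPS6KB1, an S6 kinase, fell 1.97-fold (adjusted p = 6.69e-15).

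Mitochondrial ribosomal proteins build a separate ribosome, and their mRNAs were called in both directions. Of 77 tested, 25 rose, 26 fell and 26 did not pass, near the background of 34.7% and 35.4%, with a median of 0.05 log2. With library totals 18 rose and 32 fell, with a median of -0.05, beside 29.6% higher and 40.2% lower over all genes with that scaling. Limma on log2(FPKM + 1) also gave more falls than rises, 31 and 19. Over all 16082 genes tested limma called 6230 lower and 4656 higher, so falls outnumbered rises there too. The mitochondrial large subunit genes had a median of -0.08 and the mitochondrial small subunit genes of 0.11 log2, or -0.18 and 0.01 with library totals. MRPL10 rose from 30.5 ± 1.38 to 65 ± 1.79 FPKM, 2.28-fold (edgeR adjusted p = 7.71e-17), MRPL49 1.9-fold, MRPL33 1.95-fold and MRPL44 1.68-fold. In the same subunit MRPL51, named after its value was seen, fell from 83.4 ± 5.17 to 47.8 ± 3.5 FPKM, 1.63-fold (adjusted p = 1.82e-10). As a share of counts the mitochondrial ribosomal genes held 0.3621% ± 0.0156 in the DMSO and 0.3652% ± 0.00604 in the Japoflavone B libraries (SD, n = 3).

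Among the members, sequence features of the promoter and mRNA were set beside the size of the change. The median log2 fold change was 0.66 over the 44 members with a pyrimidine run of at least 5 over the start and 0.58 over the 18 without. It was 0.67 over the 21 with CCGGAAG and 0.62 over the 41 without. Over the 69 members above 20 FPKM, which share libraries and overlap in length and base composition, the Spearman correlation of the log2 fold change was 0.36 with the GC content of the principal GENCODE 29 mRNA and -0.20 with its length. Over 12997 genes the corresponding values were 0.06 and -0.01. Among the sequences above, RPL21 and RPL36A both have a run of 13 bases. RPL21 had a log2 fold change of 1.82, or 0.96 with its copies added. RPL36A, whose span a readthrough row shares, had a log2 difference of 0.03 that did not pass. RPL12 with 6 bases rose 1.89-fold and RPL3 with 5 bases 1.21-fold.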

How the data were processed

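RNA was poly(A)-selected with oligo(dT) beads and randomly primed, per the labels' protocols. GRCh38 is the build in the submitters' processing notes, which list the tools HISAT2 2.0.1, HTSeq 0.6.1, cutadapt 1.9.1 and DESeq2; annotation release and strand setting are not given in the sources used here. The deposited table holds raw counts per gene as the authors made them, and 20417 of its rows have no symbol. The deposited FPKM were computed by the authors from those counts, the exonic size and the column total, and recomputed values differed by at most 0.005. FPKM are scaled by library totals, while fold changes use trimmed-mean factors (1.03 to 1.04 for DMSO, 0.957 to 0.970 for Japoflavone B) and can differ slightly from a ratio of FPKM.

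Genes with enough counts by filterByExpr (minimum count 10, minimum total 15) were fitted with edgeR 4.0.16 in R 4.3.3 (quasi-likelihood, group as the single term, all 6 libraries), with Benjamini-Hochberg adjustment over 16082 genes and a threshold of 0.05. Alternatives were DESeq2 size factors, library totals, scaling without the members, no filter, DESeq2 1.42.0, limma 3.58.1 on log2(FPKM + 1), a replicate block, pseudogene counts added, each library left out, and, chosen after seeing the data, members of mean FPKM of at least 20. The workflow was tested on simulated data.

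The members and lists were chosen with earlier results of these data known. Named are, in each subunit, the 4 highest and 4 lowest fold changes and 3 highest levels, the stalk, 5S particle, peptidyl transferase, decoding and platform lists, RPS6, RPS4X, the tested paralogues, and up to 4 genes of each other list by adjusted p with at least 1 FPKM in a group; others were chosen after their values were seen, and some genes of this rule are not reported here. Promoters are RefSeq's. Shares of zero and the counting interval cover counting error only, since no molecular identifiers are mentioned.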

Additional observations from a re-analysis of the deposited data

How the results depend on the processing

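The direction of both subunits' medians and the number of members called higher (within 1.5 times) were the same under every alternative run. The large and small subunit medians were 0.5336 and 0.5331 log2 with library totals and 0.5355 and 0.5324 with limma on log2(FPKM + 1), against 0.6358 and 0.6353. Library totals moved the median of all genes to -0.1059, and relative to it the subunits were at 0.6395 and 0.639. Leaving out 1 library gave 0.5853 to 0.6945 for the large and 0.5529 to 0.7005 for the small subunit, and the difference between them ran from -0.0097 (without the second Japoflavone B library) to 0.0324 (without the first DMSO library). Above a mean of 20 FPKM the difference was -0.0107 and 0 small subunit genes were lower. The number of small subunit genes called lower was 1 to 2 with a library left out, 2 being reached without the third DMSO library, where RPS28 joined RPS26. Summed FPKM gave a large to small ratio that changed by a factor of 0.9685, against 0.9811 for counts. Of the 34 members that the naming rule gives, over 14 alternatives each, 470 values kept their direction and call. The others were RPL36A, at -0.0758 with library totals (adjusted p = 0.610) and -0.0513 with limma (adjusted p = 0.537), RPS28, at 0.6618 with pseudogene counts added and -0.5721 without the third DMSO library, RPL6, at 0.1343 with limma, and RPS10, at 0.2564 with library totals. Outside that rule, RPL10A lost its call with limma, at 0.1723 (adjusted p = 0.0529). The cause of these shifts was not tested, except that the added pseudogene counts are by construction those of RPS28P7.

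Same-numbered libraries did not deviate together (correlations across genes of 0.0134, -0.00417 and -0.0446). These values gave no sign of pairing by number but cannot settle whether the libraries were handled in pairs. With the replicate number as a block the medians were 0.6401 and 0.6358, and no member's call changed. Rows with few counts, such as RPS28 with 37 to 99 and RPS26 with 67 to 176 counts per library, are measured less precisely. Why these rows hold few counts was not tested.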

Other observations

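Rows annotated as readthrough transcripts of a member and its neighbour changed more than the members did; they were chosen after their values were seen. RPL17-C18orf32 had 8, 11 and 6 counts after DMSO and 63, 54 and 49 after Japoflavone B, 7.58-fold higher, while RPL17 itself rose 1.36-fold. This row and RPL36A-HNRNPH2 passed the filter on low counts only through their Japoflavone B libraries. Their calls therefore rest on a filter met by the higher group alone, and no p-value is given for them. RPS10-NUDT3 had 24, 31 and 17 counts, then 88, 76 and 112, 4.41-fold higher (edgeR adjusted p = 8.53e-09). RPL36A-HNRNPH2 had 0, 3 and 0 counts, then 114, 100 and 93, a ratio of 110 per library total (exact 95% interval for counting error 37.2 to 535), while RPL36A did not pass. Each of these readthrough rows overlaps the span of its member, RPL17, RPS10 or RPL36A, on the same strand. How reads common to a member and its readthrough row were assigned was not tested. Over the whole table, 40 readthrough rows were tested, of which 15 were called higher and 7 lower. The 37.5% called higher lay near the 34.7% of all genes. Some of these rows also passed the filter only through the treated libraries. NME1-NME2 had 27, 47 and 35 counts, then 366, 357 and 355, 11.4-fold higher.

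RPS26, measured on a row with few counts, and its chaperone TSR2 moved in opposite directions, at -0.81 and 0.43 log2. The same held for RPL5 and its import factor HEATR3, at 0.44 and -1.04 log2. RPS6KB1 fell 1.97-fold while its substrate's gene RPS6 rose 1.6-fold. These pairs were picked after the values were seen.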
